A study of Mus musculus with 4 samples.

Results

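The D cyclins and the inhibitors of cyclin-dependent kinases (CDKs) were examined in MC38 cells, a mouse colon carcinoma line of wild-type genotype, under IFN-γ and under low oxygen. The genes were chosen by name and comprised 3 D cyclins (Ccnd1, Ccnd2 and Ccnd3), 3 inhibitors of the CIP/KIP family (Cdkn1a, Cdkn1b and Cdkn1c) and 4 inhibitors of the INK4 family (Cdkn2a, Cdkn2b, Cdkn2c and Cdkn2d), 10 of the 27179 genes counted. The 4 libraries were an untreated control under normoxia, an untreated control under hypoxia, IFN-γ under normoxia and IFN-γ under hypoxia, with 1 library each, so no difference between conditions has a replicate check. The study's methods give 20% oxygen for normoxia and 1.5% for hypoxia, and IFN-γ at 5 ng/mL for 24 h in most experiments; the time under hypoxia of the sequenced cells was not given in the sources used here. A single line in culture stands for each condition, and mRNA was measured, not protein or cell cycle phase.

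Counts on genes summed to 34302971 in the normoxic control, 34537939 in the normoxic IFN-γ library, 34514248 in the hypoxic control and 34420642 in the hypoxic IFN-γ library. The labelled cell type, colon cancer cells, was compared with 10 markers of colon epithelium. Cdh1, Cdx2 and Lgr5 had 0 counts in every library, Epcam had 2 counts in the normoxic control and 0 elsewhere, and the 10 markers together had 117, 93, 114 and 95 counts in the normoxic control, normoxic IFN-γ, hypoxic control and hypoxic IFN-γ libraries. Krt8 was the most abundant of them with 90, 56, 56 and 48 counts in the same order. The epithelial markers were thus largely absent, whereas 5 mesenchymal markers summed to 82046, 76372, 83110 and 76676 counts, most of them from Vim. The 5 leukocyte markers together had 11, 13, 7 and 3 counts, and the 2 endothelial markers 50, 26, 47 and 48.

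D cyclins bind and activate Cdk4 and Cdk6, which phosphorylate the retinoblastoma protein, release E2F transcription factors and so carry a cell from G1 into S phase. INK4 proteins bind Cdk4 and Cdk6 and keep D cyclins from them, and CIP/KIP proteins bind complexes of cyclins with several CDKs. Ccnd1 is known as a target of growth factor and Wnt signalling in colon epithelium, and Cdkn1a as a target of p53.

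Both stimuli were visible in genes known to respond to them. Irf1, an interferon-induced transcription factor, had 3770 and 4422 counts in the normoxic and hypoxic controls and 20118 and 23759 with IFN-γ. Slc2a1, the glucose transporter GLUT1 and a known hypoxia target, had 4117 and 4507 counts in the normoxic control and IFN-γ libraries and 10281 and 10833 in the hypoxic ones. Vegfa and Ndrg1 were also checked, and their fitted log2 changes with hypoxia were 0.74 and 1.26.

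Hypoxia raised 3 of the 10 genes, Cdkn1a, Cdkn1b and Cdkn2d, and lowered 1, Ccnd1. All 3 that rose encode CDK inhibitors, as do 7 of the 10 genes examined. The 1 that fell was the D cyclin with the most counts in every library. With IFN-γ, Ccnd1 rose and no gene of the 10 was called as lowered. Over all 13580 genes tested, hypoxia raised 8.21% and lowered 6.83%, and IFN-γ raised 4.76% and lowered 1.1%; DESeq2 and the comparison of 2 libraries with 2 called fewer genes and a larger share of them as raised. All 10 passed the filter on low counts, Cdkn1c only through its 2 hypoxic libraries. The median fitted log2 change of the 10 was 0.11 with hypoxia and -0.03 with IFN-γ, beside 0.00 and -0.01 over all tested genes.

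These calls were made at an adjusted p under 0.05 over all tested genes (edgeR quasi-likelihood test, Benjamini-Hochberg), with hypoxia and IFN-γ fitted together as additive effects. Each gene leaves 1 residual degree of freedom, so the spread is how far the 4 libraries depart from additive effects and does not measure variation between cultures. edgeR pools this spread across genes with a weight, the prior degrees of freedom, which was estimated as infinite here and between 16.5 and 118 in 10 alternative fits of the additive model. The size of each adjusted p therefore depends on the fit, and that of each call is given with its range over the alternatives. The standard error (SE) of each fitted change is its absolute value divided by the square root of the F statistic of the test.

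**Figure D1:**
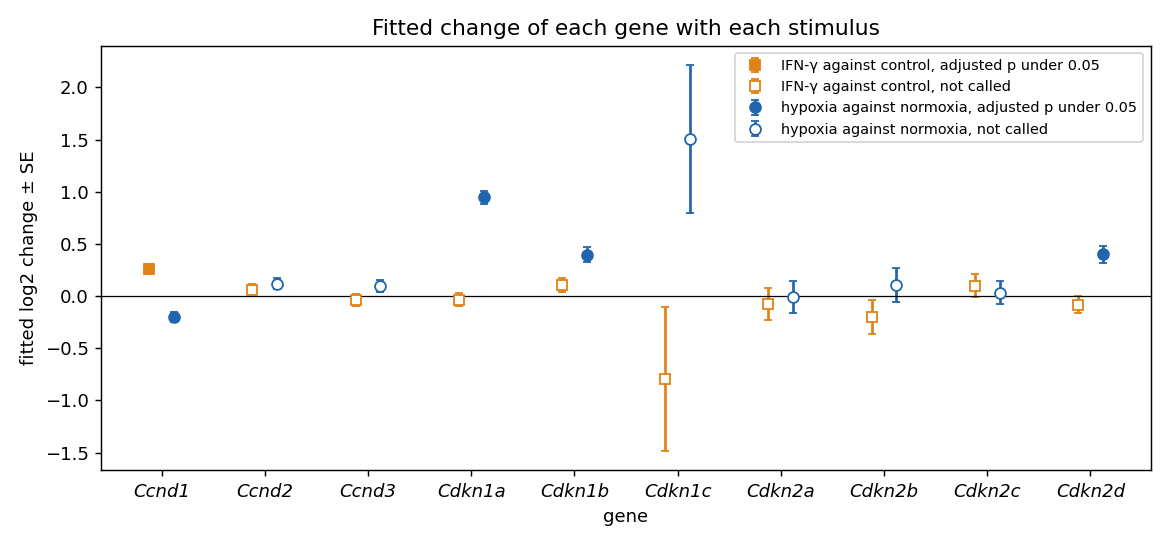
Fitted log2 change of each gene (vertical axis) with IFN-γ (squares) and with hypoxia (circles), with bars of 1 standard error; filled symbols had an adjusted p under 0.05. Cdkn1a, Cdkn1b and Cdkn2d lie above 0 with hypoxia, and Ccnd1 lies above 0 with IFN-γ and below 0 with hypoxia.

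Levels were compared between genes as CPM, the counts scaled to library size, per kilobase of the longest annotated transcript. Averaged over the 4 libraries, Ccnd1 stood at 147 CPM per kilobase, Cdkn1a at 63.7, Ccnd3 at 41.8, Ccnd2 at 30.9, Cdkn2d at 21.5 and Cdkn1b at 12.4. Cdkn2a, Cdkn2c and Cdkn2b were lower at 7.07, 5.52 and 3.99, and Cdkn1c was lowest at 0.149. This order depends on the transcript taken: with the shortest annotated transcript Ccnd2 stood above Ccnd1, at 1699 against 1170 CPM per kilobase, and the shortest annotated transcript of Ccnd2 has 115 bases.

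**Figure D2:**
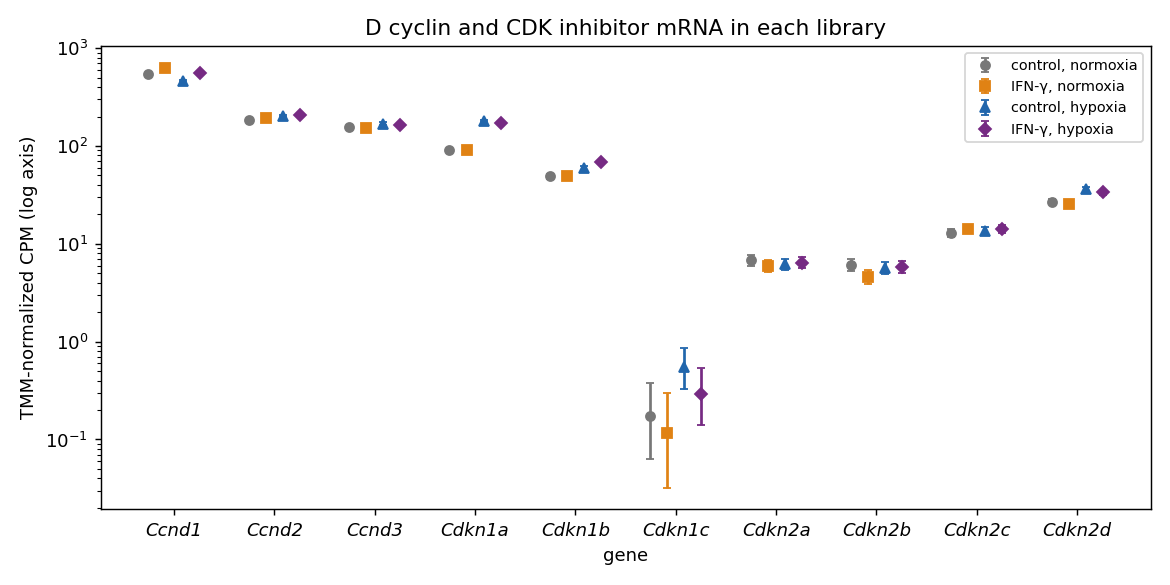
TMM-normalized CPM of each gene in each of the 4 libraries on a log axis, with 95% Poisson intervals of the counts. Cdkn1a lies near 90 CPM in both normoxic libraries and above 170 CPM in both hypoxic ones, and Cdkn1c lies under 0.6 CPM throughout.

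Ccnd1 lies on the minus strand of chromosome 7 (GRCm38.p6, 144929931 to 144939831). It had 18783 counts in the normoxic control, 21727 with IFN-γ under normoxia, 15927 in the hypoxic control and 19276 with IFN-γ under hypoxia. The hypoxic control was the lowest library and normoxic IFN-γ the highest, and with both stimuli Ccnd1 returned close to the level of the normoxic control, at a log2 ratio of 0.05 (95% counting interval 0.02 to 0.08). The fitted log2 change with IFN-γ was 0.26 (SE 0.0496; adjusted p = 9.09e-06 by the edgeR quasi-likelihood test after Benjamini-Hochberg adjustment, and 5.34e-06 to 0.809 over 12 alternative fits). With hypoxia it was -0.20 (SE 0.0496; adjusted p = 0.000758 by the edgeR quasi-likelihood test after Benjamini-Hochberg adjustment, and 0.000765 to 0.458 over the alternatives). Both calls were lost when 2 libraries were compared with 2 and the other stimulus was not modelled, and held in the other 11 fits.

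The single pairs of libraries gave the same directions for Ccnd1. IFN-γ against control was 0.22 on the log2 scale under normoxia (95% counting interval 0.20 to 0.25) and 0.29 under hypoxia (0.26 to 0.32). Hypoxia against normoxia was -0.24 without IFN-γ (-0.27 to -0.20) and -0.17 with it (-0.20 to -0.14). These intervals compare libraries, cover counting error only and hold no variation between cultures.

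Ccnd2 and Ccnd3, which bind the same kinases, varied less and neither passed the test. Ccnd2, on chromosome 6, had 6341, 6568, 6927 and 7078 counts in the normoxic control, normoxic IFN-γ, hypoxic control and hypoxic IFN-γ libraries. Ccnd3, on chromosome 17, had 5436, 5296, 5867 and 5625. For both genes the 2 hypoxic libraries held more counts than the 2 normoxic ones. The fitted log2 difference was 0.12 for Ccnd2 (adjusted p = 0.144 by the edgeR quasi-likelihood test after Benjamini-Hochberg adjustment). It was 0.10 for Ccnd3 (adjusted p = 0.261 by the same edgeR test). In single pairs, hypoxia against normoxia was 0.13 for Ccnd2 without IFN-γ (95% counting interval 0.08 to 0.18) and 0.11 with it (0.06 to 0.16). For Ccnd3 these were 0.11 (0.06 to 0.17) and 0.09 (0.03 to 0.14). Ccnd1 made up 61.5% of all D cyclin counts in the normoxic control (95% Wilson interval 60.9 to 62.0), 64.7% with IFN-γ under normoxia, 55.5% in the hypoxic control (54.9 to 56.0) and 60.3% with both stimuli. The mixture of D cyclin transcripts thus held least Ccnd1 in the hypoxic control and most in the normoxic IFN-γ library.

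Cdkn1a, which encodes p21, showed the largest fitted change of the 9 members other than the scarce Cdkn1c. It lies on the plus strand of chromosome 17 (29090979 to 29100722) and had 3125 counts in the normoxic control, 3107 with IFN-γ under normoxia, 6174 in the hypoxic control and 5832 with IFN-γ under hypoxia. Both hypoxic libraries were high and both normoxic libraries low, with and without IFN-γ. The fitted log2 change with hypoxia was 0.95, a fold of 1.93 (SE 0.0603; adjusted p = 1.72e-52 by the edgeR quasi-likelihood test after Benjamini-Hochberg adjustment, and 2.13e-30 to 0.00263 over 12 alternative fits, each of which kept the call). From the highest, this was the change ranked 237 of 13580. In single pairs it was 0.98 without IFN-γ (95% counting interval 0.92 to 1.05) and 0.91 with it (0.85 to 0.97). With IFN-γ the fitted log2 change was -0.03 (adjusted p = 0.923 by the edgeR quasi-likelihood test after Benjamini-Hochberg adjustment). The single pairs with IFN-γ gave 0.01 under normoxia (95% counting interval -0.07 to 0.08) and -0.07 under hypoxia (-0.12 to -0.02).

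Cdkn1b, which encodes p27, lies on the plus strand of chromosome 6 (134920401 to 134925525). It had 1690 counts in the normoxic control, 1680 with IFN-γ under normoxia, 2072 in the hypoxic control and 2359 with IFN-γ under hypoxia. The 2 hypoxic libraries were above the 2 normoxic ones, and the library with both stimuli was highest. Its fitted log2 change with hypoxia was 0.39, a fold of 1.31 (SE 0.0711; adjusted p = 1.26e-06 by the edgeR quasi-likelihood test after Benjamini-Hochberg adjustment, and 2.5e-06 to 0.112 over the alternatives). The call was lost in the comparison of 2 libraries with 2 and held in the other 11 fits.

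Cdkn1c, which encodes p57 and is expressed from the maternal allele, was near the limit of detection, with 6, 4, 19 and 10 counts in the normoxic control, normoxic IFN-γ, hypoxic control and hypoxic IFN-γ libraries. The most counts were in the hypoxic control. Its fitted log2 difference with hypoxia was 1.51 with an SE of 0.707, and it did not pass the test. Only the 2 hypoxic libraries reached the filter minimum of 10 counts, and the gene was left out at a minimum of 11 counts or more, so this value is a description. Without IFN-γ the pair of libraries gave a log2 ratio of 1.59 (95% counting interval 0.28 to 3.28), and with IFN-γ 1.22 (-0.47 to 3.45). Because the gene passed the filter only through its hypoxic libraries, no conclusion is drawn from these intervals.

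Cdkn2d, which encodes p19Ink4d, was the INK4 inhibitor with the highest level and the INK4 gene that changed. It lies on the minus strand of chromosome 9 (21288459 to 21291421) and had 934 counts in the normoxic control, 883 with IFN-γ under normoxia, 1244 in the hypoxic control and 1151 with IFN-γ under hypoxia. Both hypoxic libraries were above both normoxic ones. The fitted log2 change with hypoxia was 0.40, a fold of 1.32 (SE 0.081; adjusted p = 2.38e-05 by the edgeR quasi-likelihood test after Benjamini-Hochberg adjustment, and 2.85e-05 to 0.0825 over the alternatives). Comparing 2 libraries with 2 ended this call, and the other 11 fits kept it.

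Cdkn2a, Cdkn2b and Cdkn2c did not pass the test with either stimulus. Cdkn2a encodes p16Ink4a and, from another first exon and reading frame, p19Arf, an inhibitor of Mdm2; counts per gene do not separate these transcripts. It had 236, 202, 214 and 220 counts in the normoxic control, normoxic IFN-γ, hypoxic control and hypoxic IFN-γ libraries. Cdkn2b, which encodes p15, had 212, 158, 198 and 197, and Cdkn2c, which encodes p18, had 447, 483, 465 and 485. The normoxic IFN-γ library was lowest for Cdkn2a and Cdkn2b, and Cdkn2c differed little among the libraries. For Cdkn2b the log2 ratio of IFN-γ to control was -0.41 under normoxia (95% counting interval -0.72 to -0.11) and 0.01 under hypoxia (-0.29 to 0.30). Transcripts of Cdkn2a and Cdkn2b were thus present in these cells. Both lie on the minus strand of chromosome 4 (89274473 to 89294619 and 89306289 to 89311032), a region deleted in many tumor lines, and Mtap, a neighbour on that chromosome, had 12026, 12080, 10286 and 10092 counts. Of 6 genes listed around this locus, 5 were tested; hypoxia lowered Mtap (fitted log2 change -0.24), beside 6.83% of all genes, and IFN-γ raised Mllt3 (0.34), beside 4.76%. Dmrta1 had 2 counts in the normoxic control and 0 in the other libraries. Of 12 alternative fits, 11 kept the call of Mtap and 10 that of Mllt3.

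**Figure D3:**
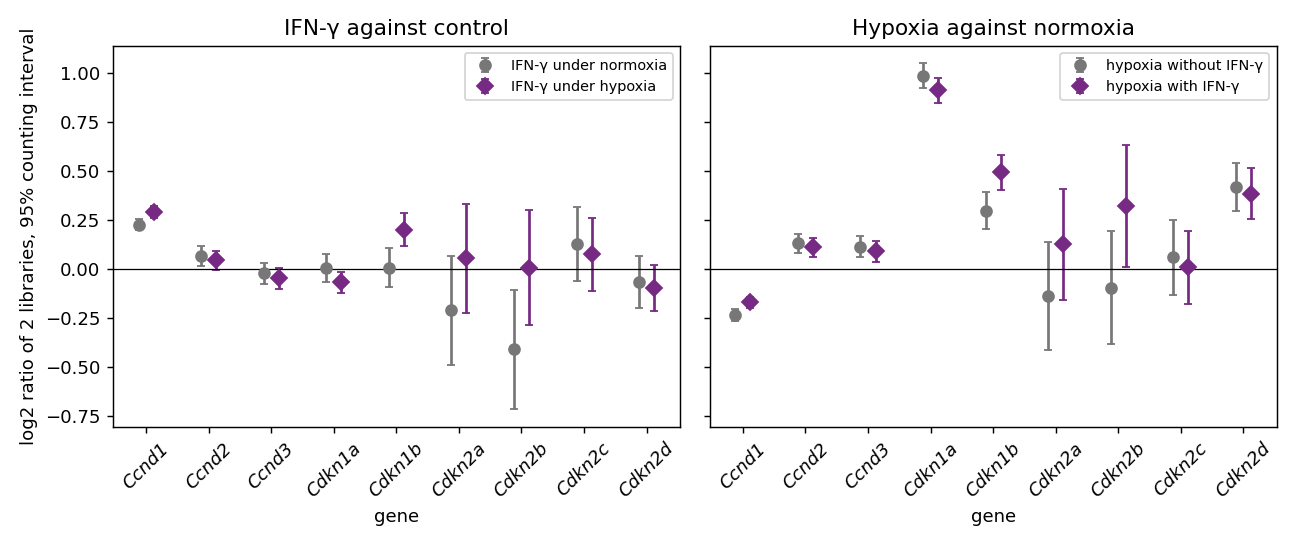
Log2 ratio of TMM-normalized CPM between 2 libraries for 9 genes, with 95% Clopper-Pearson counting intervals: IFN-γ against control under normoxia and under hypoxia (left), and hypoxia against normoxia without and with IFN-γ (right). Cdkn1c is not drawn because of its low counts. Cdkn1a lies near 1 in both hypoxic comparisons and near 0 in both IFN-γ comparisons.

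Whether IFN-γ acted differently under low oxygen was described by the difference between its log2 changes, hypoxia minus normoxia, which was not tested. It was 0.19 for Cdkn1b (95% Poisson interval 0.07 to 0.32), 0.06 for Ccnd1 (0.02 to 0.11) and 0.41 for Cdkn2b (0.00 to 0.83). The intervals of the other 7 genes included 0. Over the 10443 genes whose count reached 100 in all 4 libraries, the central 95% of this difference ran from -0.36 to 0.40, and 3603 of them had an interval that excluded 0. Cdkn2b, with 158 to 212 counts, lay just outside that range, and the 8 other genes with such counts lay inside it. Cdkn1c, with 4 to 19 counts, is not comparable with these genes.

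The counts of Cdkn1a were set against those of Ccnd1 within each library. There were 0.166 counts of Cdkn1a per count of Ccnd1 in the normoxic control (95% Clopper-Pearson interval 0.16 to 0.173) and 0.143 with IFN-γ under normoxia (0.138 to 0.148). The ratio was 0.388 in the hypoxic control (0.376 to 0.399) and 0.303 with IFN-γ under hypoxia (0.294 to 0.312). It was higher in both hypoxic libraries and, at each oxygen level, lower with IFN-γ. Cdkn1a made up 47.0% of the counts of the 7 inhibitors in the normoxic control (95% Wilson interval 45.8 to 48.2) and 59.4% in the hypoxic control (58.5 to 60.4). Per kilobase, the 7 inhibitors summed to 90.4, 88.1, 141.1 and 137.7 CPM in the normoxic control, normoxic IFN-γ, hypoxic control and hypoxic IFN-γ libraries, and the 3 D cyclins to 214.6, 239.7, 198.8 and 225.6. The summed inhibitors were higher in both hypoxic libraries, and the summed D cyclins were higher with IFN-γ at each oxygen level. In the same order, Cdkn1a alone had 43.38, 43.55, 85.85 and 81.83 CPM per kilobase. Ccnd1 alone had 145, 169.4, 123.2 and 150.4. Between the controls the log2 ratio of hypoxia to normoxia was -0.14 for Cdkn2a (95% counting interval -0.41 to 0.13) and -0.10 for Cdkn2b (-0.38 to 0.19). With IFN-γ these ratios were 0.12 (-0.16 to 0.41) and 0.32 (0.01 to 0.63). For Ccnd3 the ratio of IFN-γ to control was -0.02 under normoxia (-0.08 to 0.03) and -0.05 under hypoxia (-0.10 to 0.01). The intervals between the controls and those of Ccnd3 included 0.

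**Figure D4:**
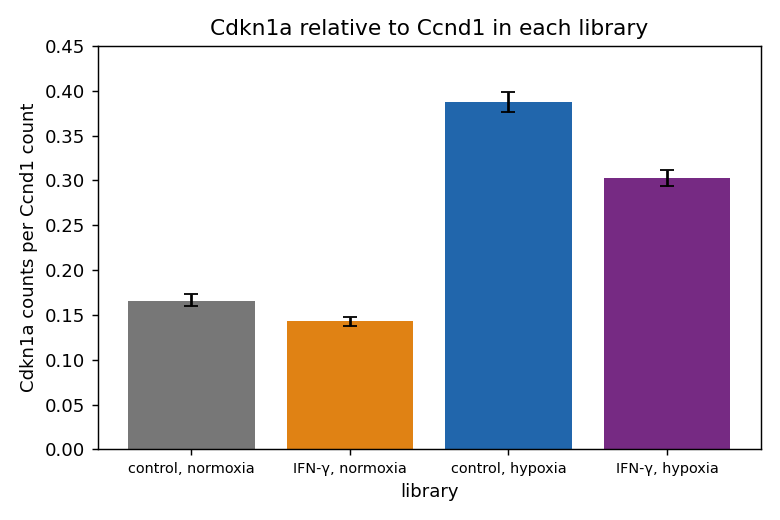
Counts of Cdkn1a per count of Ccnd1 in each library, with 95% Clopper-Pearson intervals. The ratio is 0.166 and 0.143 in the normoxic libraries and 0.388 and 0.303 in the hypoxic ones.

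Promoter sequences (RefSeq, GRCm38.p6; 250 bases before to 50 after an annotated start) were matched for 7 of the 10 genes, with 11 promoters in all; Ccnd1, Ccnd2 and Cdkn1c had no entry. They were searched on both strands for ACGTG and GCGTG, the letters at the core of the element bound by hypoxia-inducible factors. Of 32851 promoters of this length, 43.8% held at least 1 of them, and 8 of the 11 promoters here did. The 3 inhibitors that rose under hypoxia are shown, for Cdkn1a at both of its annotated starts, with matches in capitals.
Cdkn1a, chr17:29090729-29091028, plus strand: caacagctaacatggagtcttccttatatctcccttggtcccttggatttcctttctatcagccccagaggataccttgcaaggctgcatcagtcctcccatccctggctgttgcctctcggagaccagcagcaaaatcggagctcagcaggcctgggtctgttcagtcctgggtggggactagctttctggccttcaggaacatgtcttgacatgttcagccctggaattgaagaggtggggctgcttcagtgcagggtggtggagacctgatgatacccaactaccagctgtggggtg
Cdkn1a, chr17:29093519-29093818, plus strand: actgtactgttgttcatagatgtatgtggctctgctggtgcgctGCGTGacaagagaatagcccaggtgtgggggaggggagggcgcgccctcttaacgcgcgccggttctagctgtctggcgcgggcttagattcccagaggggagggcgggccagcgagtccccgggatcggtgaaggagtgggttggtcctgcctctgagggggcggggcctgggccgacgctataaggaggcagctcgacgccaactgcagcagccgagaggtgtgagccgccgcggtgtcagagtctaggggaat
Cdkn1b, chr6:134920151-134920450, plus strand: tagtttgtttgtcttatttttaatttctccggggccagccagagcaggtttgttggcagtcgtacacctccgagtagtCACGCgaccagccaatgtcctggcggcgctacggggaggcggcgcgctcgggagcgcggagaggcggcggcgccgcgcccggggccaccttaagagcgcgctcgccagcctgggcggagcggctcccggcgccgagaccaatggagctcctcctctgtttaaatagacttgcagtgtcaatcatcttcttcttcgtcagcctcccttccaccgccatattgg
Cdkn2d, chr9:21291160-21291459, minus strand: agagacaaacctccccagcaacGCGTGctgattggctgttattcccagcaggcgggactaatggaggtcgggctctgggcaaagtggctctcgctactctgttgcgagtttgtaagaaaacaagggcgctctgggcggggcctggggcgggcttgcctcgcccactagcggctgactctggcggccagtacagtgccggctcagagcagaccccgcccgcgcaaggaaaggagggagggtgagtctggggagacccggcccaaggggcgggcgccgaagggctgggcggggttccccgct
The first Cdkn1a promoter held no match, and the second held 1, as did those of Cdkn1b and Cdkn2d. The start used for Cdkn2d, 21291209, lies inside the span of the gene given above (21288459 to 21291421). No GENCODE transcript was matched to that start. Among genes not called with hypoxia, 1 promoter of Cdkn2a and 1 of Cdkn2c held 4 matches each, beside 3.86% of all promoters with at least 4. The matches of Cdkn2c included a palindrome, CACGTG, which counted on both strands. Of the same genes, 1 promoter of Ccnd3, that of Cdkn2b and the other of Cdkn2c held 1 match each. A match describes the letters in the window and does not show binding.

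In the lists of pathway genes, counts of calls under hypoxia are read beside the 8.21% of all genes raised and 6.83% lowered, and those under IFN-γ beside 4.76% and 1.1%. Of 10 G1/S cyclins and kinases, hypoxia raised Ccne2 (fitted log2 change 0.27) and lowered Ccna2 (-0.17), and IFN-γ raised Cdk6 (0.29), a partner of the D cyclins. Cdk4, the other partner, had 16948, 16812, 16110 and 15649 counts in the normoxic control, normoxic IFN-γ, hypoxic control and hypoxic IFN-γ libraries. Of 17 genes of the retinoblastoma and E2F families, hypoxia raised Rb1 (0.40) and Rbl1 (0.16, a call kept in 3 of 12 alternative fits), which encode pocket proteins that hold E2F, and lowered E2f8 (-0.27), E2f3 (-0.23) and Tfdp1 (-0.16). In the order given for Cdk4, E2f8 had 3093, 2589, 2232 and 2474 counts, so its fall was larger without IFN-γ than with it. IFN-γ called 0 of these 17, beside 4.76% of all genes raised and 1.1% lowered. Of 14 genes for the turnover of D cyclins and CIP/KIP proteins, hypoxia lowered Fbxo31 (-0.26) and Skp2 (-0.18). Skp2 encodes the F-box protein that targets p27. In the same list hypoxia raised Fbxo4 (0.33, a call kept in 4 of 12 alternative fits). Fbxo4 had 399, 388, 575 and 423 counts in the order given for Cdk4, so its rise was larger without IFN-γ than with it.

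Genes under E2F and genes of mitosis were described in the same way. Of 20 G1/S genes under E2F, hypoxia lowered 5 and raised 0, beside 6.83% and 8.21% of all genes, with a median log2 change of -0.09; Tyms (-0.25), Cdt1 (-0.23) and Chaf1b (-0.20) changed most. Each of the 5 lost its call in at least 1 of the 12 alternative fits. IFN-γ raised Rrm2 (0.17) and lowered Gins2 (-0.21, a call kept in 5 of 12 alternative fits). Of 15 G2/M genes, hypoxia raised 2, Bub1 (0.47) and Cenpf (0.24), and lowered 2, Cdc20 (-0.21) and Foxm1 (-0.19), with a median of -0.03, and IFN-γ raised Top2a (0.28). Foxm1 had 4413, 4306, 3459 and 4183 counts in the normoxic control, normoxic IFN-γ, hypoxic control and hypoxic IFN-γ libraries. Its fall was thus larger without IFN-γ than with it. The share of cells in each phase was not measured, and a shift in phase cannot be told apart from a change within cells.

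Cdkn1a is a known target of p53, and other genes of that pathway were called in both directions. Trp53 itself had 7168 counts in the normoxic control, 6501 with IFN-γ under normoxia, 5836 in the hypoxic control and 5907 with IFN-γ under hypoxia, and was lowered by hypoxia (fitted log2 change -0.22). Of 21 tested genes in a list of p53 and its targets, hypoxia raised 3, Trp53inp1 (0.96), Polk (0.23, a call kept in 3 of 12 alternative fits) and Plk2 (0.20), and lowered 2, Aen (-0.36) and Trp53, where the shares over all genes were 8.21% raised and 6.83% lowered. The median of this list was 0.01. Neither the sequence of Trp53 nor p53 protein was examined, and the cause of the rise of Cdkn1a was not tested. IFN-γ raised 1 gene of this list, Eda2r (0.65), and lowered 2, Btg2 (-0.56) and Plk2 (-0.39), beside 4.76% and 1.1% of all genes.

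Among 17 regulators of transcription known to act on these genes, Foxo3, an activator of Cdkn1b, had 510, 525, 828 and 758 counts in the normoxic control, normoxic IFN-γ, hypoxic control and hypoxic IFN-γ libraries. It was high in both hypoxic libraries, with a fitted log2 change of 0.62. Hypoxia also raised Jun (0.20) and lowered Egr1 (-0.53). Stat3 was among those raised by IFN-γ (0.80). Of the pathway genes named with a change, Bub1, Foxo3 and Stat3 kept their calls in all 12 alternative fits, and the others lost theirs in at least 1: Skp2, Foxm1 and Jun kept theirs in 7, and, apart from the genes given above with their number of fits, the rest kept theirs in 9 to 11.

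**Figure D5:**
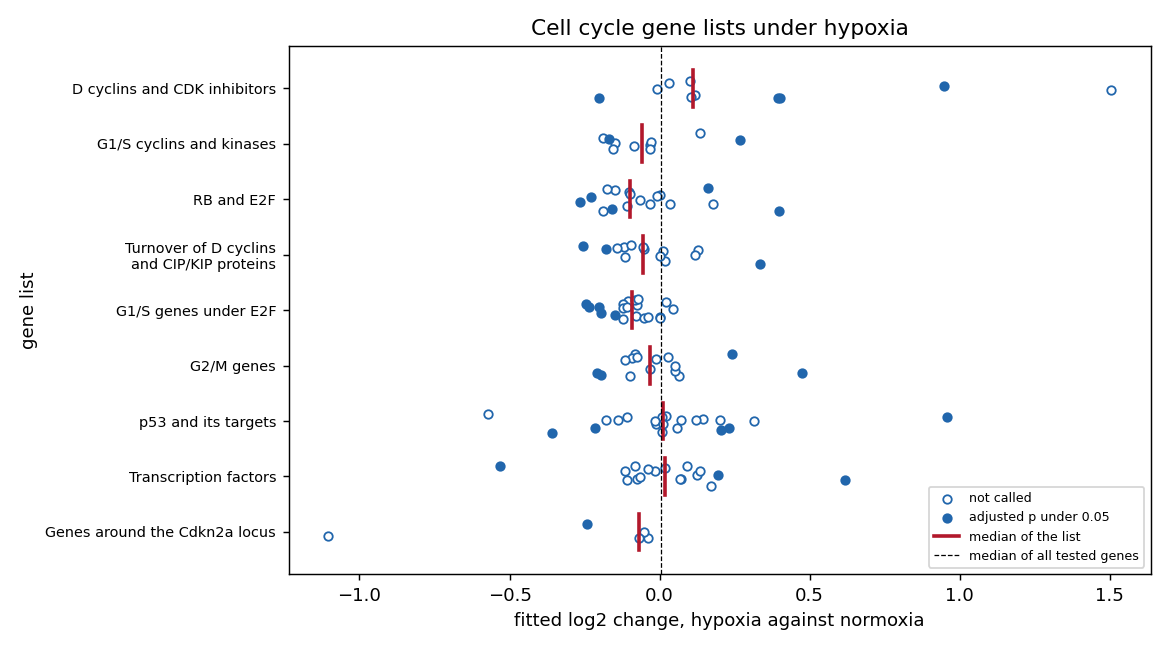
Fitted log2 change with hypoxia (horizontal axis) of each tested gene in 9 lists; filled points had an adjusted p under 0.05, red bars are list medians and the dashed line is the median of all tested genes. The D cyclins and CDK inhibitors have a median of 0.11 and the G1/S genes under E2F a median of -0.09.

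The profiles most like that of Cdkn1a among 10443 genes, by Euclidean distance of centred log2 CPM over the 4 libraries, were those of Tpi1 (distance 0.0281), Tnfaip3 (0.0518) and Ldha (0.0518). Tpi1 and Ldha encode glycolytic enzymes, and Tpi1 had 40140, 39622, 80845 and 75362 counts in the normoxic control, normoxic IFN-γ, hypoxic control and hypoxic IFN-γ libraries. For Ccnd1 the nearest were Gpnmb (0.0317), Itgb7 (0.0495) and A930004D18Rik (0.0519). With 4 libraries, such likeness is a description.

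Exons of Ccnd1, Ccnd2, Ccnd3, Cdkn1a and Cdkn1c overlap genes annotated on the other strand, and how counting treated strand was not given in the sources used here, so reads of such partners cannot be told apart from theirs. The shared part was 22.3% of 31-base words for Ccnd1, 6.93% for Ccnd2, 3.61% for Ccnd3, 6.88% for Cdkn1a and 27.2% for Cdkn1c. Words shared with genes elsewhere reached 4.34% for Ccnd3 and 3.3% for Cdkn1a, and Cdkn2a, Cdkn2b, Cdkn2c and Cdkn2d shared none.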

How the data were processed

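Strand-specific poly-A libraries were sequenced from both ends on a DNBSEQ instrument. The authors aligned reads with HISAT2 and deposited whole-number counts per gene, not normalized; the submitters' processing notes name featureCounts and mm10, and the strand setting was not given in the sources used here. Gene IDs were matched to symbols for GRCm38.p6 (25275 of 27179). Counts were fitted with edgeR 4.0.16 in R 4.3.3 by glmQLFit and glmQLFTest with TMM and filterByExpr at a minimum of 10 counts (13580 genes), and with DESeq2 1.42.0 as an alternative. Single-pair changes are log2 ratios of CPM with 0.5 counts added. A floor of 3 counts corresponds to 0.0869 to 0.0875 CPM. Intervals and floors cover counting error only.

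The members and lists were chosen with earlier results of these data known. Named genes are the 10 members, 5 stimulus checks, up to 3 raised and 3 lowered called genes per list and stimulus with a mean of at least 50 counts, any gene of lists of up to 12, and the 3 nearest profiles of Cdkn1a and Ccnd1; 1 gene is not reported here. Overlaps and 31-base words used GENCODE M21 transcripts, and the edgeR and interval computations were tested on simulated data. Alternatives were 6 planned fits, 6 fits chosen after seeing the data with a filter minimum of 8, 9, 11, 12, 15 or 20 counts, a log2 change of at least 1 as well, 5 counts added, total counts in place of TMM and the shortest transcript.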

Additional observations from a re-analysis of the deposited data

Results flagged for a closer look

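None of the 10 genes had single-pair changes of opposite direction under the same stimulus with both counting intervals excluding 0. Groups of 1 library cannot be examined for a library far from the others.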

How the results depend on the processing

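The direction of the 5 member calls was the same in every fit run, and 11 or 12 of 12 alternative fits kept each call. Setting 2 libraries against 2 with the other stimulus not modelled, which puts that stimulus into the spread, left 0 members called with IFN-γ and 1, Cdkn1a, with hypoxia, and 242 (239 raised, 3 lowered) and 176 (150 raised, 26 lowered) of all genes. In that fit the log2 changes that lost their call were 0.25 for Ccnd1 with IFN-γ and -0.20, 0.40 and 0.40 for Ccnd1, Cdkn1b and Cdkn2d with hypoxia. DESeq2's Wald test called 369 genes with IFN-γ (353 raised, 16 lowered) and 563 with hypoxia (360 raised, 203 lowered). edgeR called 796 (647 raised, 149 lowered) and 2042 (1115 raised, 927 lowered), and the cause of this difference was not tested. DESeq2 called the same members. It was run with its own filter on low mean counts, and it gave no adjusted p for Cdkn1c under hypoxia. Asking for a log2 change of at least 1 as well left 0 members with IFN-γ and 0 with hypoxia.

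The 6 filter minimums chosen after seeing the data called 685 to 808 genes with IFN-γ and 1753 to 2134 with hypoxia and the same 5 member calls. They were added because the prior degrees of freedom, infinite at the planned minimum of 10 counts, were finite in the 4 other additive edgeR fits run before them. They were finite in these 6 as well; some further trial fits, not used here, also gave infinite values. The planned adjusted p-values of the 4 hypoxia calls were smaller than in any of the 12 alternatives, and that of Ccnd1 with IFN-γ was not. Adding 5 counts or using total counts moved no single-pair change or difference of IFN-γ changes outside its counting interval. The additive fit already sets each stimulus against its control within each state of the other; there are no replicate numbers to block on, and leaving out a library leaves 0 residual degrees of freedom.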
